A study of Mus musculus with 4 samples.

Results

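The nuclear genes of oxidative phosphorylation (OXPHOS) were compared between cells of the 32D line growing with and without interleukin 3. Members were the rows whose gene name begins with Nduf, Uqcr or Atp5 or with Cox and a digit from 4 to 8, plus Sdha, Sdhb, Sdhc, Sdhd, Uqcc1, Uqcc2 and Cyc1, with names holding -ps left out. This gave 98 of 23756 genes, of which 47 belong to complex I, 4 to complex II, 11 to complex III, 19 to complex IV and 17 to complex V. A total of 8 matching -ps names were left out, among them Ndufb1-ps, with 11754 and 17085 counts in IL3+ and 14201 and 17044 in IL3- cells.

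32D (32Dcl3) is a murine hematopoietic line that normally needs IL-3. Both groups carry a CRISPR/Cas9 knockout of Abl1 made with a lentiviral guide vector. The Abl1ko/IL3+ group (2 libraries) was kept with IL-3, and the Abl1ko/IL3- group (2 libraries) consisted of knockout cells that grew after IL-3 had been withdrawn gradually. Knockout clones were selected as single clones, and the labels do not tie libraries to clones or guides, so the part of clone in any difference was not tested. Cells with intact Abl1 were not analysed here. Total RNA was depleted of ribosomal RNA before sequencing, and the library totals were 59659395 and 60382588 counts (IL3+) and 48953174 and 55320279 counts (IL3-).

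The labels give the cell type as pre-B-cell. Of the B lineage markers, Rag1 had 0 to 4 counts, Igll1 12 to 57, Vpreb1 57 to 157, Cd79a 43 to 635 and Cd79b 607 to 1044. Mpo, the myeloperoxidase of myeloid progenitors, had 28978 to 121109 counts. Kit had 0 to 4 counts. Abl1 RNA was counted in every library (1322 and 2222 with IL-3, 1544 and 2256 without), and editing that shifts a reading frame need not remove the transcript, so these counts do not check the labels.

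OXPHOS is the set of inner mitochondrial membrane complexes that pass electrons from NADH and succinate to oxygen and use the resulting proton gradient to make ATP. Complex I oxidizes NADH, complex II oxidizes succinate, complex III passes electrons from ubiquinol to cytochrome c, complex IV hands them to oxygen, and complex V is the ATP synthase. Mitochondrial DNA encodes membrane subunits of the complexes other than complex II, for complex III cytochrome b alone. All other subunits and the assembly factors are nuclear genes. Many of these nuclear genes are known targets of NRF1 and of GABP, an ETS family factor, which also act on genes for mitochondrial transcription.

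The promoters are shown because the members share these regulators by background and because the compared genes differ in them. RefSeq promoters (GRCm38.p6, 250 bases before to 50 after the start) were found for 77 members, with 82 promoters in all. The NRF1 core GCATGCGC, searched on both strands, occurred in 12 of the 77 genes (15.6%), against 3.0% of all 27025 genes with a promoter. The GABP/ETS core CCGGAAG, searched on both strands, occurred in 18 of the 77 (23.4%), against 9.9% of all genes. At least 1 of these letter strings was present in 25 members (32.5%, all genes 12.4%), and both were present in 5 members (6.5%, all genes 0.6%). The background of 27025 genes was not limited to the 16535 genes that passed the expression filter, so these shares are not matched for expression. The NRF1 string overlaps its own reverse complement in GCGCATGCGC, so such a site matches on both strands. The 250 bases before the start are given for Atp5b and Atp5j, the members with an unadjusted p under 0.05, for Ndufaf8, the complex I gene with the highest fold change, and for Cox6a1, a gene with both motifs. Capitals mark matches.
Atp5b, chr10:128083057-128083306, plus strand: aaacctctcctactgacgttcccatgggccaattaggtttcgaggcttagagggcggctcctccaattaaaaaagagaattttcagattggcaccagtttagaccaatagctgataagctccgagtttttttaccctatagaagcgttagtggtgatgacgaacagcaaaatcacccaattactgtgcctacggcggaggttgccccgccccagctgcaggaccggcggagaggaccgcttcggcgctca
Atp5j, chr16:84834977-84835226, minus strand: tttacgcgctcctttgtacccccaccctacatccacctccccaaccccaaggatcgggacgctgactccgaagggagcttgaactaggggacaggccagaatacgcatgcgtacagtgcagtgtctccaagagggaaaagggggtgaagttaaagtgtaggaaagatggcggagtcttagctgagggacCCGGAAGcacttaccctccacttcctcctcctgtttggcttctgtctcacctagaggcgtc
Ndufaf8, chr11:120098684-120098933, plus strand: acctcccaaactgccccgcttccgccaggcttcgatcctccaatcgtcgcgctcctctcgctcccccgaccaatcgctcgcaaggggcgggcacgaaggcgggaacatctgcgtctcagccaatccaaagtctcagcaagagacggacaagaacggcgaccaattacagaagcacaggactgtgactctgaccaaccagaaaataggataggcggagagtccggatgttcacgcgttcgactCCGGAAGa
Cox6a1, chr5:115348959-115349208, minus strand: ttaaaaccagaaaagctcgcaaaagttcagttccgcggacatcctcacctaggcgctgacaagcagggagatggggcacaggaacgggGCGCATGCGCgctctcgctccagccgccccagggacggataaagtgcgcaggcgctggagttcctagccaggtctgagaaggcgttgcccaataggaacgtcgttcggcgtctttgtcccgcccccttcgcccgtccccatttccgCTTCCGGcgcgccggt
The Atp5b window held neither string. Atp5j has another RefSeq promoter, chr16:84835626-84835875 before its start, which held neither string before that start. In the windows printed, the matches began 61 bases before the start in Atp5j, 8 before it in Ndufaf8, and 162, 160 and 16 before it in Cox6a1. Uqcrc1 held the NRF1 string at bases 31 and 33 after its start, outside the part printed. Strings occurred in members with a log2 fold change below 0, such as Ndufaf1 (-0.53) and Sdhb (-0.47), as well as above it. A link between the strings and the direction of the fold change was not tested.

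The OXPHOS transcripts as a set differed more between the libraries of the IL3+ group than between groups. Summed over members, TMM-normalized expression (CPM, counts scaled to a common library size after a correction for composition) were 7449 and 17178 in IL3+ replicates 1 and 2 and 12969 and 10995 in IL3- replicates 1 and 2. Both IL3- sums lay between the IL3+ sums. Of the 96 members that passed the expression filter, 80 had their lowest CPM in IL3+ replicate 1 (83.3%, all 16535 tested genes 31.6%), and 66 had their highest in IL3+ replicate 2 (68.8%, all genes 28.3%).

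**Figure D1:**
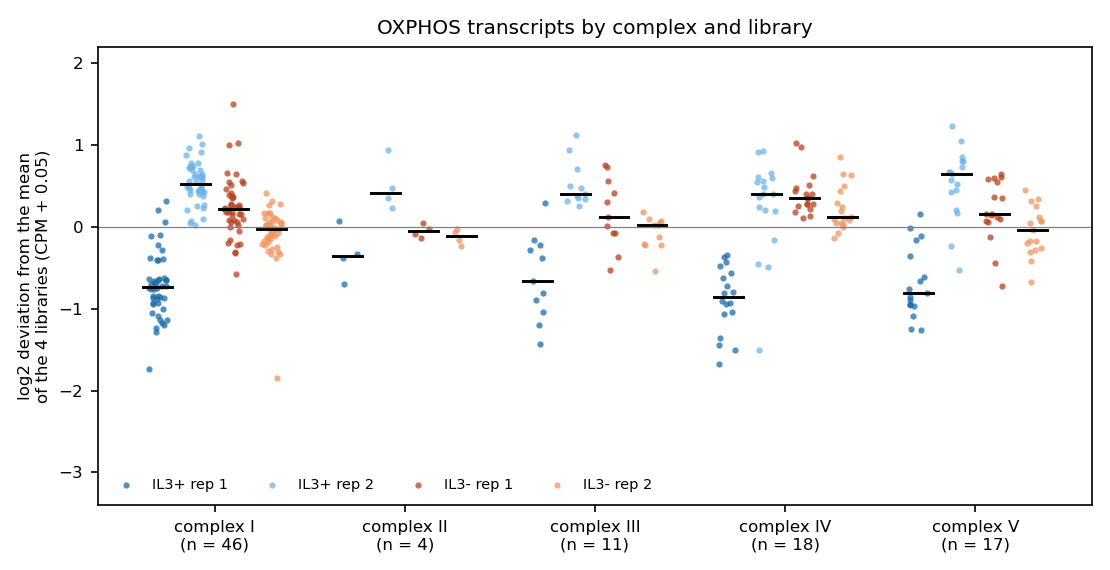
Each point is a tested OXPHOS gene, and the vertical axis gives its log2 CPM (plus 0.05) as a deviation from the mean of the 4 libraries. Bars are medians, columns are libraries and blocks are complexes. In every complex the points of IL3+ replicate 1 lie lowest by median and those of IL3+ replicate 2 highest, with both IL3- libraries in between.

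IL3+ replicate 1 was also low for short genes in general. For the quintile of all tested genes with the shortest exons (median 667 bases) the median log2 deviation from the mean of the libraries was -0.35 and 0.23 in IL3+ replicates 1 and 2 and 0.12 and 0.18 in IL3- replicates 1 and 2. For the longest quintile (median 8702 bases) the deviations were 0.29, -0.20, -0.02 and 0.01. OXPHOS genes are short, with a median exon length of 1578 bases for the tested members against 3354 over all tested genes. Their median deviation was -0.75 and 0.49 with IL-3 against 0.23 and 0.01 without it, and after a loess correction for gene length it was -0.58 and 0.36 with IL-3 against 0.16 and -0.09 without it. The offset of IL3+ replicate 1 was therefore smaller but still present after the correction. Hba-a1, an erythroid globin gene named here after its values were seen, varied in the same order, at 7559 and 366735 counts with IL-3 against 158709 and 91439 without. Of the other erythroid and megakaryocyte markers, Hbb-bs and Klf1 had this order in CPM, whereas Gata1, Itga2b and Pf4 did not. Gata1 had a CPM of 214.9 and 365.9 with IL-3 against 168.4 and 150.7 without. Nuclear genes of the mitochondrial ribosome (-0.65, 0.51, 0.27 and -0.04) and of the cytosolic ribosome (-0.51, 0.28, 0.21 and 0.05) gave median deviations in the library order of the OXPHOS genes. The part of these differences in the OXPHOS values was not tested.

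**Figure D2:**
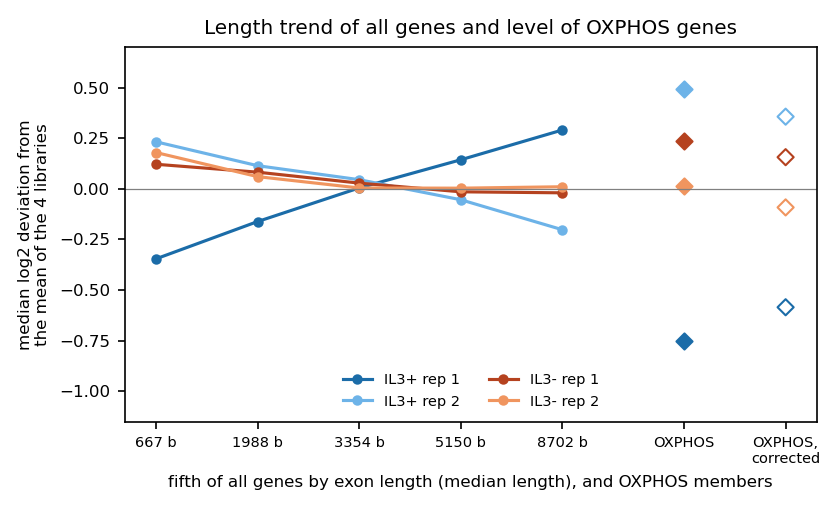
Median log2 deviation from the mean of the 4 libraries (vertical axis) for quintiles of all tested genes by exon length, with the median length in bases on the horizontal axis, and for OXPHOS members before (filled diamonds) and after (open diamonds) the length correction. Lines are libraries. IL3+ replicate 1 rises from -0.35 in the shortest to 0.29 in the longest quintile, and its OXPHOS median moves from -0.75 to -0.58 with the correction.

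Between groups, no OXPHOS gene passed an adjusted p of 0.05 in edgeR's quasi-likelihood test, and none of all 16535 genes did (0.0%). DESeq2 called 271 genes and no member, and limma on FPKM called none. At an unadjusted p under 0.05, 1 of 96 members was lower without IL-3 (Atp5b, against 3.36% of all genes) and 1 was higher (Atp5j, against 2.56%). The CPM of the groups did not overlap for 8 members that were lower without IL-3 (17.9% of all genes) and for 9 that were higher (19.4%). Both shares of the members, 8 and 9 of 96, were below the background. The median log2 fold change of the members (IL3- over IL3+) was 0.09, with 59 above 0 and 37 below, beside -0.03 over all genes, with 7946 above and 8589 below. Single libraries decided its direction. Without IL3+ replicate 1 the median was -0.35 (19 above 0, 77 below), without IL3- replicate 1 it was -0.03, and without IL3+ replicate 2 it was 0.88 (86 above, 10 below). The medians of complexes I, III and V without IL3+ replicate 1 were -0.39, -0.28 and -0.40, and without IL3+ replicate 2 they were 0.84, 0.52 and 0.83.

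**Figure D3:**
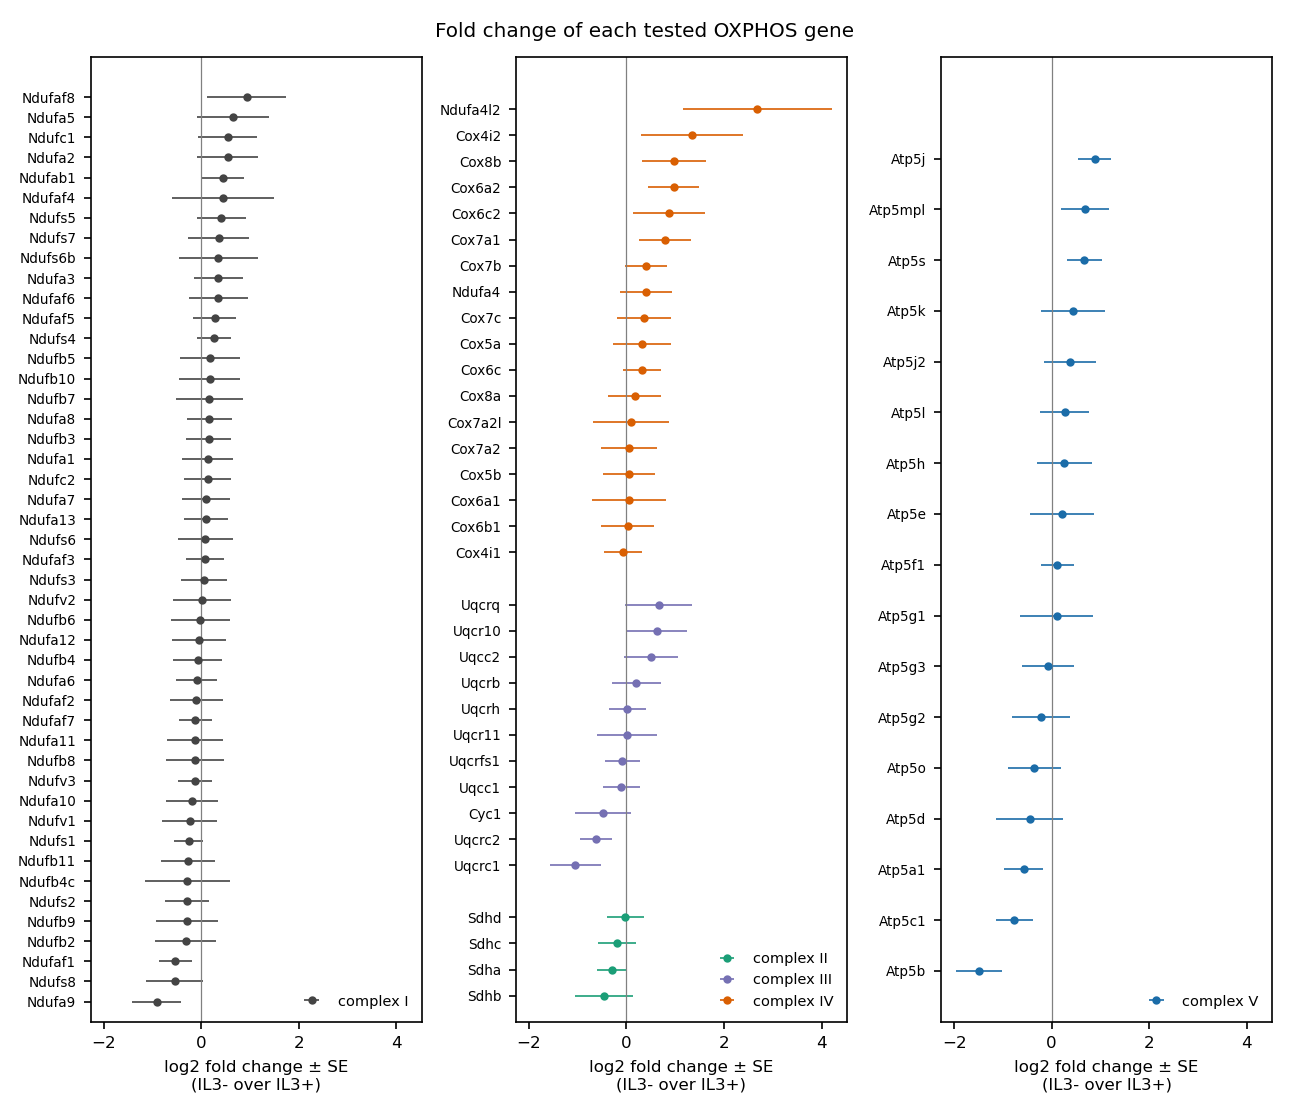
Log2 fold change (IL3- over IL3+, horizontal axis) with its standard error for each of the 96 tested genes, ordered within complexes. Atp5b stands lowest at -1.49, and the largest values, such as 2.68 for Ndufa4l2, belong to complex IV isoforms with few counts and wide errors.

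Complex I transcripts showed no common direction. Of 46 tested members 26 were above 0 and 20 below, for a median log2 value of 0.08. By role, the medians were -0.24 for 7 core subunits, 0.11 for 29 accessory subunits and 0.18 for 8 assembly factors. The groups did not overlap for Ndufab1, the mitochondrial acyl carrier protein, which was higher, and for Ndufs1 and the assembly factor Ndufaf1, which were lower. On the length-scaled FPKM scale the gene means ran from 0.02 for the copy Ndufa11b to 196.0 for Ndufa1, with a median of 28.8.

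Ndufa1, a small membrane subunit, had a CPM of 49.7 and 130.2 with IL-3 against 101.2 and 96.3 without it. The IL3- values lay between the IL3+ values, and the log2 fold change was 0.13 ± 0.52 (SE, adjusted p = 0.99). Ndufs1, an iron-sulfur subunit of the electron input arm, had 75.8 and 67.9 with IL-3 against 58.5 and 61.7 without it (-0.26 ± 0.30, adjusted p = 0.95). Its groups did not overlap, but the nearest values of the groups differed by less than the IL3+ libraries did from each other. Ndufv1, which binds NADH and the flavin, was at 39.7 and 103.3 with IL-3 against at 74.0 and 47.2 without (-0.24 ± 0.56, adjusted p = 0.98).

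Ndufa9, an accessory subunit beside the ubiquinone site, had the lowest fold change of complex I. Its CPM was 60.4 and 141.6 with IL-3 against 46.9 and 60.4 without it (-0.91 ± 0.50, adjusted p = 0.87), so IL3+ replicate 1 and IL3- replicate 2 were level to 3 digits. Ndufaf8, an assembly factor, had the highest, with 3.61 and 16.9 with IL-3 against 24.4 and 14.7 without (0.93 ± 0.81, adjusted p = 0.93), and its groups overlapped. Ndufaf4, another assembly factor named here after its values were seen, split the IL3- libraries, at 13.7 and 20.03 with IL-3 against 42.0 and 4.05 without. The related copies Ndufb4c, Ndufs6b and Ndufa11b can share reads with their parent genes and are uncertain, and Ndufa11b (0 to 2 counts) was not tested.

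All 4 subunits of complex II had a fold change below 0 with TMM scaling (3 of 4 when scaled by library size alone, with Sdhd at 0.04), with a median of -0.25, and none passed the test. Sdha, the flavoprotein that oxidizes succinate, had a CPM of 201.0 and 224.0 with IL-3 against 173.9 and 170.7 without it (-0.30 ± 0.30, adjusted p = 0.94). Its groups did not overlap. Sdhb, the iron-sulfur subunit, was at 33.2 and 103.3 with IL-3 against at 53.0 and 45.9 without (-0.47 ± 0.59, adjusted p = 0.96), and Sdhd, a membrane anchor and the complex II gene with the highest FPKM, at 142.3 and 236.9 against 190.7 and 182.4 (-0.02 ± 0.38, adjusted p = 0.999). The median of the complex turned to 0.32 without IL3+ replicate 2.

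Within complex III the large matrix-side proteins Uqcrc1 and Uqcrc2 were lower without IL-3 in both libraries, whereas the groups overlapped for each of the other 9 members. Uqcrc1 had a CPM of 122.8 and 310.6 with IL-3 against 111.0 and 98.6 without it (-1.05 ± 0.52, adjusted p = 0.86). The distance between the IL3+ replicates was larger than the gap between groups, and without IL3+ replicate 2 the log2 fold change was -0.23. Uqcrc2 had 169.5 and 176.3 with IL-3 against 96.3 and 127.6 without it (-0.63 ± 0.32, adjusted p = 0.87). Here the IL3+ libraries were close to each other and both above the IL3- libraries. Exons of Uqcrc2 share 504 bases (19.7%) with the opposite-strand gene Pdzd9, and reads of the strands may be mixed.

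The redox subunits of complex III overlapped between groups. Cyc1 (cytochrome c1) had 50.4 and 152.4 with IL-3 against 75.7 and 69.2 without (-0.49 ± 0.58, adjusted p = 0.95), and Uqcrfs1 (the Rieske protein) had 95.2 and 146.6 with IL-3 against 110.3 and 118.0 without (-0.08 ± 0.35, adjusted p = 0.99). Uqcrh, the hinge subunit and the complex III gene with the highest FPKM (mean 336.0), had 358.3 and 584.6 with IL-3 against 469.2 and 485.5 without (0.02 ± 0.38, adjusted p = 0.999). The median over the 11 members was 0.01, and -0.06 with the length correction.

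Complex IV gave the highest median log2 fold change of the 5 complexes, 0.34, with 17 of 18 tested members above 0 and 1 below (Cox4i1). None passed the test. Groups did not overlap for 6 of the 18, all higher without IL-3 (19.4% of all genes). These were 5 alternative isoforms and the copy Cox6c2, all of them under 10 CPM in every library. The 12 ubiquitous subunits had a median of 0.13, and each of their groups overlapped. Without IL3+ replicate 1 the median of the complex was -0.15.

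The ubiquitous subunits placed both IL3- libraries between or near the IL3+ libraries. Cox6b1, at the intermembrane side and the complex IV gene with the highest FPKM (mean 433.0), had a CPM of 192.8 and 509.8 with IL-3 against 380.6 and 332.5 without it (0.02 ± 0.53, adjusted p = 0.999). Cox4i1 had 334.6 and 571.6 with IL-3 against 466.4 and 396.1 without (-0.07 ± 0.40, adjusted p = 0.99). Cox5a, a matrix-side subunit, had 74.8 and 228.5 with IL-3 against 217.8 and 161.5 without (0.32 ± 0.60, adjusted p = 0.98). Cox6a1, Cox7a2, Cox7a2l, Cox8a and Ndufa4, now counted as a complex IV subunit, had log2 fold changes of 0.05, 0.06, 0.08, 0.17 and 0.40.

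The alternative isoforms, which other tissues use in place of these subunits, had low counts, between 0 and 217 in every library. Cox4i2, an isoform known from lung and low oxygen, had 6 and 26 counts with IL-3 against 42 and 33 without it. The muscle isoforms Cox6a2 (108 and 93 against 138 and 217 counts), Cox7a1 (101 and 119 against 143 and 201) and Cox8b (36 and 29 against 58 and 55) were likewise counted more often without IL-3 in CPM. Their log2 fold changes were 0.97 ± 0.52, 0.78 ± 0.53 and 0.98 ± 0.66, with adjusted p-values of 0.87, 0.90 and 0.90. Ndufa4l2, known as a hypoxia-induced paralog of Ndufa4, had 4 and 0 counts with IL-3 against 11 and 12 without, so that its fitted value of 2.68 ± 1.53 depends on the prior count and is no bound. Cox6b2, the testis isoform, had 5 to 9 counts and was not tested.

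Per length, these isoforms made up little of their family in any library. Cox4i2 took 0.05% and 0.16% of the Cox4 FPKM with IL-3 against 0.36% and 0.28% without it. Cox6a2 took 0.43% to 1.99% of Cox6a, Cox7a1 0.64% to 1.84% of Cox7a and Cox8b 0.28% to 0.79% of Cox8, and for these 3 families the groups overlapped. Within Cox7a, Cox7a2l held 46.7% and 60.4% with IL-3 against 58.9% and 56.5% without.

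Complex V held both members with an unadjusted p under 0.05, Atp5b below 0 and Atp5j above it. Among the 5 subunits of the F1 head, the soluble catalytic part, 4 had fold changes below 0 and Atp5e was at 0.21 (median -0.57), and the groups of Atp5b, Atp5c1 and Atp5a1 did not overlap. The peripheral stalk, which holds the head in place, had a median of 0.19 (3 of 4 above 0, with Atp5o at -0.35), and its groups did not overlap for Atp5j alone. The 4 small membrane subunits had a median of 0.41, and the groups of each overlapped. The difference between roles was not tested. Over all 17 members the median was 0.12, with 10 above 0 and 7 below.

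Atp5b, the catalytic beta subunit, had the lowest fold change of all members. Its CPM was 475 and 1003 with IL-3 against 259 and 267 without it, so the IL3- libraries were close to each other and both below the lower IL3+ library. The log2 fold change was -1.49 ± 0.47 (unadjusted p = 0.024, adjusted p = 0.77). Leaving out each library in turn gave values from -1.92 to -0.86, the smallest change without IL3+ replicate 2. With the replicate number as a block it was -1.40 (unadjusted p = 0.05).

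Atp5a1, the alpha subunit that alternates with beta in the head, had a CPM of 493.9 and 837.5 with IL-3 against 493.0 and 401.4 without it (-0.57 ± 0.40, adjusted p = 0.90). IL3+ replicate 1 and IL3- replicate 1 were practically level. Atp5c1, the gamma subunit of the rotating shaft, had 204.4 and 341.2 with IL-3 against 152.1 and 169.6 without (-0.76 ± 0.38, adjusted p = 0.86). On the FPKM scale the ratio of Atp5b to Atp5a1 was 0.71 and 0.89 with IL-3 against 0.39 and 0.49 without it, and these groups did not overlap either. The ratio of Atp5c1 to Atp5a1 overlapped (0.68 and 0.67 against 0.51 and 0.69).

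Atp5j, coupling factor 6 of the peripheral stalk, was the member with the lowest unadjusted p among those above 0. Its CPM was 68.9 and 92.4 with IL-3 against 159.6 and 137.1 without it (0.88 ± 0.33, unadjusted p = 0.045, adjusted p = 0.84). Both IL3- libraries were above both IL3+ libraries by more than either pair was apart in CPM. With the replicate block the value was 0.89 and the unadjusted p was 0.15. Atp5j shares 397 bases of exon (12.7%) with Gabpa on the opposite strand, the gene for the alpha subunit of GABP, which was at 60.4 and 28.7 with IL-3 against 23.4 and 32.3 without. No source used here gives the strand setting, and reads in the shared part may belong to either gene.

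Atp5s, coupling factor B, named here after its values were seen, was also higher in both IL3- libraries, at 18.3 and 14.2 with IL-3 against 26.3 and 25.5 without (0.67 ± 0.36, adjusted p = 0.87). Atp5k, the small membrane subunit with the highest FPKM of the complex (mean 204.0), had 54.2 and 193.3 with IL-3 against 197.4 and 136.4 without (0.43 ± 0.66, adjusted p = 0.97). The genes for the c subunit of the proton-driven ring encode the same mature protein, and their log2 fold changes were 0.10 (Atp5g1), -0.21 (Atp5g2) and -0.08 (Atp5g3). Atp5g2 supplied 61.5% to 64.6% of their summed FPKM, Atp5g3 26.2% to 30.1% and Atp5g1 6.54% to 11.6%, with overlapping groups for Atp5g3 and Atp5g1. The Atp5g2 share was 64.1% and 64.6% with IL-3 against 61.6% and 61.5% without it.

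**Figure D4:**
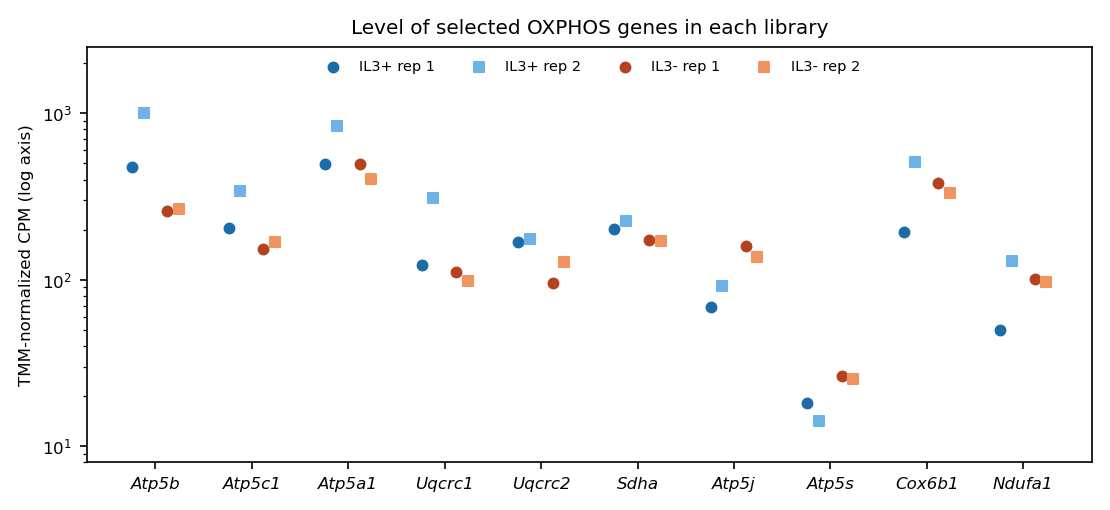
TMM-normalized CPM (log axis) of 10 OXPHOS genes in each library, chosen to show genes whose groups separate beside Cox6b1 and Ndufa1, whose groups overlap. Circles are replicate 1 and squares replicate 2, with IL3+ in blue and IL3- in red and orange. Atp5b lies at 475 and 1003 with IL-3 against at 259 and 267 without it, and Atp5j shows the opposite order.

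The balance between complexes was similar in all libraries. Complex I held 28.8% to 29.7% of the summed FPKM of all members, complex III 14.0% to 16.4% and complex IV 28.0% to 32.4% in the individual libraries. Complex V held 22.3% and 22.2% with IL-3 against 20.7% and 19.6% without it, and complex II held 4.35% and 2.87% with IL-3 against 2.66% and 3.07% without it. The complex V share was thus lower in both IL3- libraries, and the others overlapped or differed by under a percentage point at the nearest values.

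The mitochondrially encoded partners of these complexes mostly had higher values without IL-3. Of 13 transcripts 12 had a log2 fold change above 0, with a median of 1.15, and the groups did not overlap for 10, all higher without IL-3 (19.4% of all genes). No transcript passed the adjusted threshold, and 6 were higher at an unadjusted p under 0.05 (2.56% of all genes). After the length correction the median was 0.99, with 10 above 0 and 3 below. The highest was mt-Cytb, the complex III cytochrome b, with a CPM of 1351 and 1026 with IL-3 against 3720.2 and 2576 without it (1.41 ± 0.41, adjusted p = 0.73). The lowest was mt-Atp6, a membrane subunit of the ATP synthase, with 2176 and 333 with IL-3 against 941 and 717 without (-0.60 ± 0.88, adjusted p = 0.97). mt-Atp6, mt-Atp8 and mt-Nd4l were highest in IL3+ replicate 1.

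Set against the nuclear genes of the same library, the mitochondrial sum was 2.79 and 0.73 times as large with IL-3 against 2.91 and 2.63 times as large without it. The ratio in IL3+ replicate 1, which had the low nuclear sum, lay between those of the IL3- libraries. For complex I, the ratio of mitochondrial to nuclear CPM was 2.78 and 0.87 with IL-3 against 3.10 and 2.75 without, and the groups overlapped. For complex III it was 1.28 and 0.49 with IL-3 against 2.30 and 1.81 without, so these groups did not overlap. For complex IV it was 7.42 and 1.73 with IL-3 against 6.42 and 5.94 without, and for complex V 1.12 and 0.08 against 0.35 and 0.39.

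**Figure D5:**
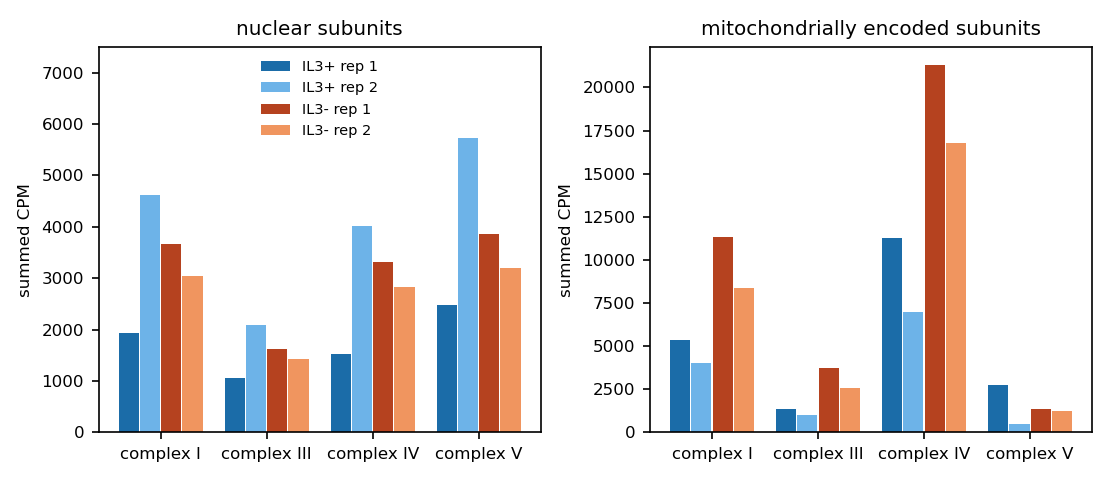
Summed CPM (vertical axes, different ranges) of nuclear and mitochondrially encoded subunits of complexes I, III, IV and V, with a bar for each library. Nuclear sums in both IL3- libraries lie between the IL3+ replicates in every complex shown, whereas the mitochondrial sums of complexes I, III and IV are higher in both IL3- libraries.

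Genes that feed or build the complexes were read from fixed lists. Of the pyruvate dehydrogenase and TCA cycle genes 15 of 18 were below 0 and 3 above, with a median of -0.28. The groups did not overlap for 9 that were lower (17.9% of all genes) and for 1 that was higher (19.4%). Suclg1, the alpha subunit of succinyl-CoA ligase, had a CPM of 72.7 and 154.4 with IL-3 against 43.1 and 45.6 without (-1.36 ± 0.46, adjusted p = 0.81), and Suclg2, which pairs with it in the GTP-forming enzyme, was highest at 0.67 with libraries from 6.63 to 63.3. Electron carriers and transporters had a median of -0.15 (3 above 0, 9 below), from -1.09 for Dhodh, which links pyrimidine synthesis to ubiquinone, to 0.22 for cytochrome c (Cycs).

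No gene passed the adjusted threshold in the other lists. The medians were 0.24 for 13 coenzyme Q synthesis genes (from -1.13 for Coq8a to 1.12 for Coq10a), -0.02 for 20 complex IV assembly genes (from -3.99 for Pet117 to 0.60 for Cox17) and 0.11 for 18 assembly factors of other complexes (from -0.75 for Atpaf1 to 0.44 for Ttc19). Pet117 had only 166 and 75 counts with IL-3 against 12 and 0 without. Its fitted value of -3.99 ± 1.60 therefore depends on the prior count and is no bound. The mitochondrial ribosome had a median of 0.12 over 78 genes (from -0.95 for Mrps27 to 0.92 for Mrpl32), and the cytosolic ribosome 0.15 over 85 genes (from -1.92 for Rpl29 to 1.13 for Rpl38). Rpl29 had a CPM of 15.5 and 38.7 with IL-3 against 0.79 and 13.5 without (-1.92 ± 1.30), with IL3- replicate 1 far below the rest.

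Regulators of mitochondrial genes had a median of -0.17 over 16 tested genes, with 7 above 0 and 9 below. Polg2, the accessory subunit of the mitochondrial DNA polymerase, had the highest value, with a CPM of 6.05 and 7.21 with IL-3 against 15.9 and 13.9 without (1.17 ± 0.40, adjusted p = 0.82). Gabpa had the lowest (-0.68 ± 0.48, adjusted p = 0.90). Nrf1, named here after its values were seen, was at 21.8 and 16.3 with IL-3 against 10.8 and 15.6 without (-0.53 ± 0.42).

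Markers of other cell types varied between the libraries, and none of those given here passed the adjusted threshold. Of 12 granulocyte markers 10 were tested and 9 were above 0, for a median log2 value of 3.27 and a summed CPM of 1193 and 443 with IL-3 against 1126 and 5835 without it. These sums overlapped between groups, and IL3- replicate 2 was highest. By gene, the groups did not overlap for 5 of the 10, all higher without IL-3 (19.4% of all genes), and overlapped for the rest. At an unadjusted p under 0.05 in edgeR, 5 of the 10 were higher (2.56% of all genes). Mmp8 and Retnlg were at or near 0 counts in every library (0 to 18). Of 8 myeloid progenitor markers 7 were tested and all 7 were below 0 (median -0.65, summed CPM 2801 and 2371 against 1603 and 943). Of 7 mast cell and basophil markers 6 were tested, with 1 above 0 and 5 below (median -1.17), and their summed CPM was 751 and 122 in IL3+ and 165 and 242 in IL3- replicates. IL3+ replicate 1 was highest, with Fcer1a at 12502 counts against 70 in IL3+ replicate 2. The part of these markers in the OXPHOS and mitochondrial values was not tested, and in bulk RNA fewer cells of a kind and less RNA per cell cannot be told apart.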

How the data were processed

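RNA-seq was analysed from 32Dcl3-Abl1ko cells with IL-3 (2 libraries) and without it (2 libraries), grouped by the labels. The authors aligned the reads to GRCm38 with Rsubread, summarized them with featureCounts and deposited raw counts per gene, with FPKM values beside them. The submitters' processing notes name STAR, Cuffdiff and mm10 instead, so the tool behind each column and the strand setting are uncertain. Where genes share exons or are near-identical copies, such counting can split or drop reads. This applies to 32 members whose exons overlap another gene in GENCODE release M21.

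Tests on the deposited counts used edgeR 4.0.16 under R 4.3.3 (filterByExpr, TMM, quasi-likelihood F test, two-sided, Benjamini-Hochberg over 16535 genes, threshold 0.05). Standard errors come from the fold change and F statistic. Depth was 48953174 to 60382588 counts per library. The p-values set the group difference against a spread estimated from 2 libraries per group, with information shared across genes. The samples are described as biological duplicates, and the labels do not say whether they differ by clone, guide or culture. Replicates differed by more than sampling noise. The script was tested on simulated counts. The deposited FPKM values were used to compare levels between genes and, as log2(FPKM + 1) or log2(FPKM + 0.1), in limma 3.58.1. Length was the union of exons, and the length correction used loess (span 0.3).

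Alternatives were DESeq2 1.42.0, library size only, other count filters (none, or 10 counts in every library), the length correction, limma, the replicate block, and leaving out each library. The members, gene lists and tests were chosen with earlier results of these data known. Genes named with values were the member with the highest mean FPKM of each complex, the 5 highest and 5 lowest fold changes, core subunits, isoform groups, members with an unadjusted p under 0.05, and the extremes of each related list. Other genes given with values were chosen after their values were seen. Cox8c was not among the rows used here. Promoters come from RefSeq. Figures were drawn with matplotlib 3.10.9.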

Additional observations from a re-analysis of the deposited data

How the results depend on the processing

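No OXPHOS gene was called under any of the alternatives run. For all genes the count was 0 with edgeR and 271 with DESeq2, in which no member was called and the lowest member had an adjusted p of 0.19. Without single libraries it ranged from 0 to 15, the 15 without IL3- replicate 1. The median of the members was 0.09 and stayed between 0.05 and 0.25 under the settings that keep all libraries, with 0.24 under the replicate block. Leaving out libraries moved it from -0.35 to 0.88. Same-number deviations correlated at -0.19, and the labels do not say whether the replicate numbers pair the libraries. The crossed pairing, chosen after seeing the data, also gave 0.24 and no calls. With 2 libraries per group both pairings compare the same group means, so their shared median follows from the layout and is no check. The block changed no call.

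Directions turned for some genes. Sdhd was 0.042 when scaled by library size, 0.022 with the replicate block or crossed pairing and 0.041 in limma at both pseudocounts. Atp5g3 was 0.011 when scaled by library size, 0.088 with the replicate block or crossed pairing, 0.017 with block and length correction, and 0.10 and 0.11 in limma. Atp5g2 was 0.009 and 0.010 in limma. Uqcrh was -0.061 and Cox6b1 -0.036 with the length correction, and Uqcrh -0.052 with block and length correction. Leaving out libraries moved Ndufa1 from -0.38 to 0.99, Uqcrh from -0.28 to 0.41, Cox6b1 from -0.50 to 0.89, Atp5k from -0.20 to 1.62, Cox5a from -0.25 to 1.34, Cox6a1 from -0.66 to 1.59, Cox7a2 from -0.51 to 1.07, Cox7a2l from -0.65 to 1.71, Cox8a from -0.37 to 1.08, Ndufa4 from -0.11 to 1.22, Atp5g1 from -0.58 to 1.51, Sdhd from -0.33 to 0.39, Ndufv1 from -0.75 to 0.61, Sdhb from -1.05 to 0.57, Uqcrfs1 from -0.35 to 0.26, Cyc1 from -1.06 to 0.52, Cox4i1 from -0.39 to 0.37, Atp5g2 from -0.79 to 0.81, and Atp5g3 from -0.61 to 0.81. In each of these the sign turned without IL3+ replicate 1 or 2, and the cause was not tested. With 2 libraries per group, differences of the size seen for most members could not be told from replicate spread.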
